A study of Mus musculus with 6 samples.

Results

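The Id genes (Id1, Id2, Id3 and Id4) and the genes of their E-protein partners (Tcf3, Tcf4 and Tcf12) were followed in cultured BMSCs, stromal cells of the bone marrow that can give rise to bone or fat. The 7 genes were taken by family membership, out of 19938 tested genes, and were chosen with earlier results of these data known. The only measured value in the rule was the mean level over all 6 arrays, on which 1 probe set per gene was selected; where a gene had several, the brightest would have been chosen by that mean. Each of the 7 genes had 1 probe set paired with its symbol alone, so that no choice arose. The cells came from 6-month-old mice on the C57BL/6 background, either with the miR-188 knockout (KO188, 3 arrays) or wild type (WT, 3 arrays). All were grown in osteogenic medium with 10% fetal calf serum, 100 nM dexamethasone, 10 mM beta-glycerophosphate and 0.05 mM L-ascorbic acid-2-phosphate, and 1 Affymetrix array was hybridised per RNA sample. Whether the biological replicates of the labels were separate mice or cultures is not said, so p-values measure only the spread between these samples. The labels give no batch, and a culture difference common to the KO188 samples cannot be told apart from genotype. With 3 arrays per group, the number of arrays limits the precision.

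Id proteins are small helix-loop-helix proteins that lack the basic region needed to touch DNA. They pair with E proteins, which are widely made basic helix-loop-helix (bHLH) transcription factors, and keep them and their tissue-specific bHLH partners off E-box sites in DNA. Bone morphogenetic protein (BMP) signalling through SMAD factors is a well-known inducer of Id1, Id2 and Id3, and Id levels tend to be high in dividing progenitors. In mouse preadipocytes Id2 is known to favour Pparg expression and fat cell formation, and in mice Id4 is known to favour osteoblast over adipocyte formation.

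The knocked-out gene makes 2 mature microRNAs, shown here in lower case with the seed (bases 2 to 8) in capitals because they define the genotype (RefSeq, GRCm38.p6, minus strand of chromosome X, chrX:7248031-7248051 and chrX:7247992-7248012).
mmu-miR-188-5p: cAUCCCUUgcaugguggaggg
mmu-miR-188-3p: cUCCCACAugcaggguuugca

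The Mir188 probe set read 7.03, 7.13 and 7.09 in KO188, against 7.15, 7.13 and 7.16 in WT, and did not pass the test (limma adjusted p = 0.235 over all tested genes). Neither the part of the locus that this probe set reads nor the deleted part is stated in the labels, so it does not check the genotype. Across tested genes, which are not independent replicates, the correlation was 0.9988 to 0.9993 within a group and 0.9909 to 0.9912 between KO188 and WT arrays. Of the stromal markers examined, 9 of 10 measured genes lay above the level that marks genes these cells are not known to use, taken as 6.73. That is the 95th percentile over 1190 genes of olfactory and vomeronasal receptors, a guide chosen after the data were seen. All 7 Id and E-protein genes also had 6-array means above that level. Markers of other marrow cells were mostly at or below it, namely 6 of 8 macrophage genes, 6 of 10 lymphoid and plasmacytoid dendritic genes and 5 of 8 endothelial genes.

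The upstream sequences of Id2, Id3 and Id4 are shown to set the gene that changed most beside paralogs that did not pass the test. Each is the 250 bases before the RefSeq start site in GRCm38.p6 (Id2 at chr12:25096093-25096342, minus strand; Id3 at chr4:136143572-136143821, plus strand; Id4 at chr13:48260866-48261115, plus strand). Capitals mark E-boxes (CANNTG), the sites of E proteins, and the GC-rich element GGCGCC, a sequence that BMP-activated SMADs can bind. Both motifs read the same on either strand, and no 2 matches overlap.
Id2: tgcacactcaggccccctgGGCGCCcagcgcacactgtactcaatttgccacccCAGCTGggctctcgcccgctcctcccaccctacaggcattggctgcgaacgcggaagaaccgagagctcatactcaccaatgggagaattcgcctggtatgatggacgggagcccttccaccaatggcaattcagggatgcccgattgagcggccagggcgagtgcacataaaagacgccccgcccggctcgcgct
Id3: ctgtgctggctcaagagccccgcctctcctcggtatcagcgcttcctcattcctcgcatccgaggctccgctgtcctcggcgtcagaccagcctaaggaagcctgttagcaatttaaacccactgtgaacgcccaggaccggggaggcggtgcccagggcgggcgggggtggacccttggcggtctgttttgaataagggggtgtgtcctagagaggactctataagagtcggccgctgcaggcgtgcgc
Id4: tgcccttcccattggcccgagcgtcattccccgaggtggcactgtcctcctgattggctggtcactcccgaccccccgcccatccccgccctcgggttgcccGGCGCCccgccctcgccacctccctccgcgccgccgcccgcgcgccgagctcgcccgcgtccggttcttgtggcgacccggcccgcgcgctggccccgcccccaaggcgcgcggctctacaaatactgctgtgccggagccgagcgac

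The Id2 window held 1 E-box, whose first base lies 196 bases before the start, and 1 GC-rich element, whose first base lies 231 bases before it. The Id4 window held 1 GC-rich element, 148 bases before the start, and 0 E-boxes, and the Id3 window held neither motif. Over 32817 RefSeq windows of the same length, 66.2% held an E-box and 9.59% held the GC-rich element. A match is a description of the letters in this window and not a binding site. RefSeq windows were matched for 5 of the 7 genes. Id1, the other Id gene that fell, had none and is not shown, so the set of Id genes is incomplete here.

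Id2 fell by 1.12 on the log2 scale in KO188, Id1 fell by 0.30, and Id3 and Id4 did not pass the test. Among the E-protein genes, Tcf3 fell by 0.12 and Tcf4 and Tcf12 did not pass. In all, 3 of the 7 genes had an adjusted p under 0.05 by limma, each of them lower in KO188, beside 29.8% of all tested genes in either direction and 16.5% in the lower direction. The median log2 change over the 7 genes was -0.06, beside -0.0053 over all tested genes. The arrays of the groups did not overlap for 4 of the 7 genes, as for 41.5% of all tested genes.

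Id2 had log2 values of 10.05, 9.98 and 9.84 in KO188, against 11.05, 11.09 and 11.09 in WT. All 3 KO188 arrays lay below all 3 WT arrays, with a gap of 0.999 between the nearest arrays of the groups. The mean was 9.96 ± 0.11 in KO188 and 11.08 ± 0.02 in WT (SD, n = 3 each). The log2 change was -1.12 (SE 0.055, 95% confidence interval -1.25 to -0.99, limma adjusted p = 2.2e-05), which puts the KO188 level at 46.1% of the WT level. Of the 19938 tested genes, 200 changed by at least as much in either direction, Id2 included, and Id2 had the 16th largest fall. Its KO188 arrays spread more widely than its WT arrays, and more than the median SD per gene in KO188 (0.048).

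Id1, the family member most often used as a readout of BMP signalling, had log2 values of 9.53, 9.50 and 9.50 in KO188, against 9.80, 9.75 and 9.89 in WT. The groups did not overlap, and KO188 replicates 2 and 3 carried the same value, 9.49881. Such ties between arrays of a group occurred for 26.5% of tested genes in the deposited table. The mean was 9.51 ± 0.02 in KO188 and 9.81 ± 0.07 in WT (SD, n = 3 each). It changed by -0.30 on the log2 scale (SE 0.039, limma, adjusted p = 0.0014), or 81.0% of the WT level. Changes of this size or larger were seen in 10.2% of tested genes.

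Id3, which is often induced together with Id1, had log2 values of 10.18, 10.10 and 10.14 in KO188, against 10.06, 10.00 and 10.12 in WT. The groups overlapped, since the highest WT array lay above the lowest KO188 array. The log2 change was 0.08 (95% confidence interval -0.02 to 0.18, limma adjusted p = 0.20), so that a fall as large as that of Id1 lay outside the interval.

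Id4 had log2 values of 7.35, 7.25 and 7.43 in KO188, against 7.37, 7.38 and 7.38 in WT. The KO188 arrays lay on both sides of the WT arrays. It changed by -0.03 on the log2 scale (95% confidence interval -0.14 to 0.08, limma adjusted p = 0.69). Its level was the lowest of the 4 Id probe sets, though levels of different probe sets do not rank the transcripts, and values near the dim end of an array are compressed.

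**Figure D1:**
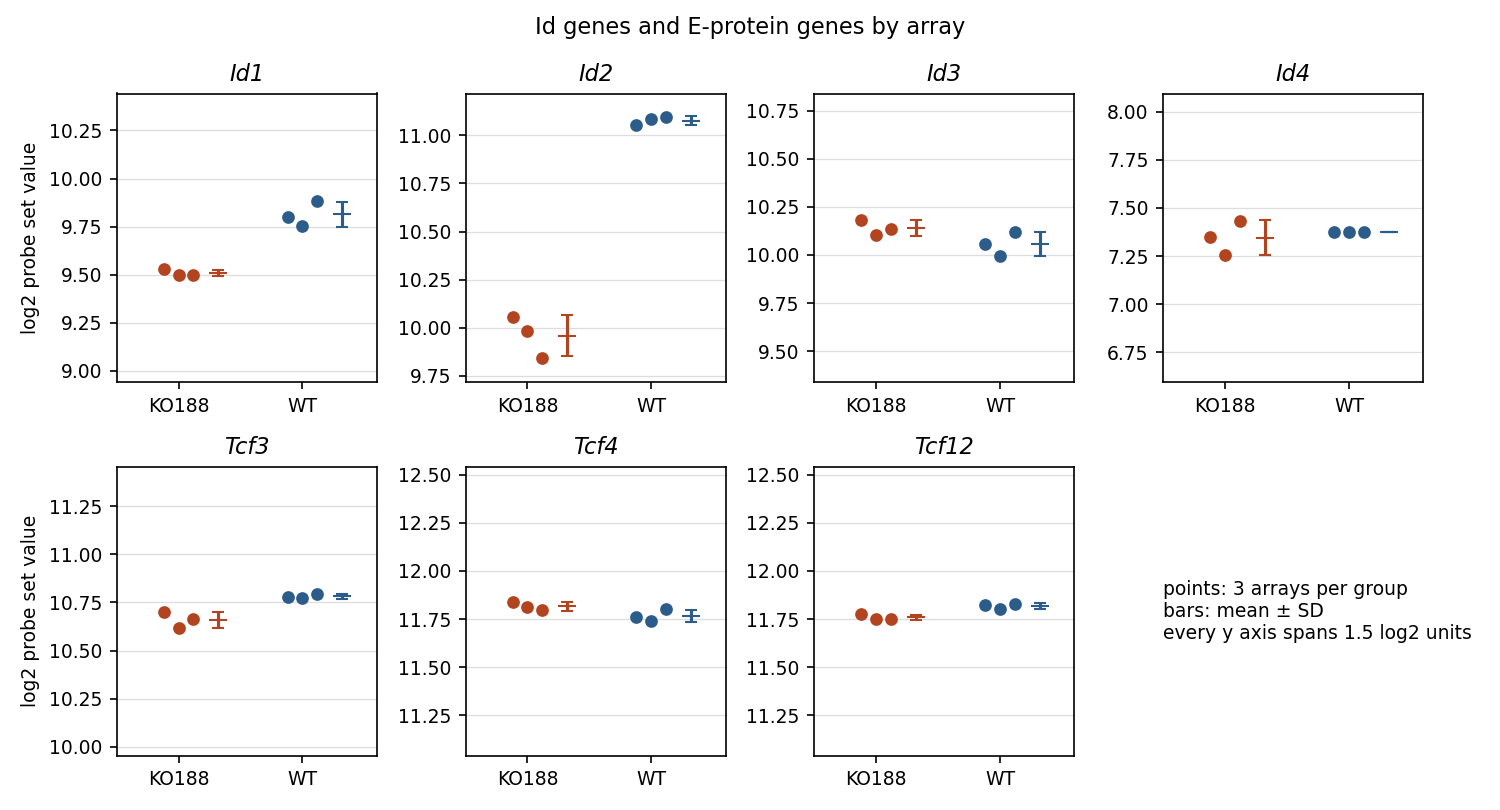
Log2 probe set value of each gene on each array (points), with the mean and SD of the 3 KO188 and 3 WT arrays (bars); each vertical axis spans 1.5 log2 units, so panels can be compared for the size of the change and not for level. Id2 is the gene with the wide gap, 9.84 to 10.05 in KO188 against 11.05 to 11.09 in WT, while the groups of Id3, Id4 and Tcf4 overlap.

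Whether the Id genes changed unequally was asked within arrays, from the difference between 2 genes' log2 values on the same array. For Id2 less Id3, this difference lay between -0.29 and -0.12 in KO188 and between 0.97 and 1.09 in WT, so the changes of the 2 genes differed by -1.20 on the log2 scale. For Id1 less Id2 it lay between -0.52 and -0.34 in KO188 and between -1.33 and -1.21 in WT, a difference of 0.81 between the changes of the 2 genes. For Id1 less Id3 it lay between -0.65 and -0.60 in KO188 and between -0.26 and -0.24 in WT, a difference of -0.39. In 5 of the 6 pairs of Id genes the KO188 and WT arrays separated fully (two-sided exact permutation p = 0.10, the lowest value possible with 3 arrays per group; 0.12 after Benjamini-Hochberg adjustment over the 6 pairs). The exception was Id3 less Id4 (exact permutation p = 0.20). Each of the 5 pairs holds Id1 or Id2, so the pairs are not independent of each other or of those genes' own changes. As single genes, 41.5% of all tested genes separated fully, and the share among pairs of genes was not computed.

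Tcf3, whose products are the E-protein splice forms best known from lymphocyte development, had log2 values of 10.70, 10.61 and 10.66 in KO188, against 10.78, 10.77 and 10.79 in WT. The groups did not overlap, by a gap of 0.07. The log2 change was -0.12 (SE 0.030, limma adjusted p = 0.024), or 91.9% of the WT level, and 34.0% of tested genes changed at least as much. Passing the test depended on the arrays used, since with 1 array left out it passed in 1 of 6 fits, that without KO188 replicate 1, and the adjusted p ran from 0.016 to 0.072.

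Tcf12, which encodes the E protein HEB, had log2 values of 11.77, 11.75 and 11.75 in KO188, against 11.83, 11.80 and 11.83 in WT. The KO188 arrays lay just below the WT arrays, with a gap of 0.03. The log2 change was -0.06 (95% confidence interval -0.12 to -0.0014, limma adjusted p = 0.12) and did not pass after adjustment. With median centring of the arrays it passed at -0.10 (adjusted p = 0.039).

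Tcf4, an E-protein gene that is distinct from the Wnt mediator of similar name, had log2 values of 11.84, 11.81 and 11.80 in KO188, against 11.76, 11.74 and 11.80 in WT. The groups overlapped, with WT replicate 3 above KO188 replicate 3. Its log2 change was 0.05 (95% confidence interval -0.02 to 0.12, limma adjusted p = 0.28), and under quantile normalization it was 0.09 (adjusted p = 0.030).

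**Figure D2:**
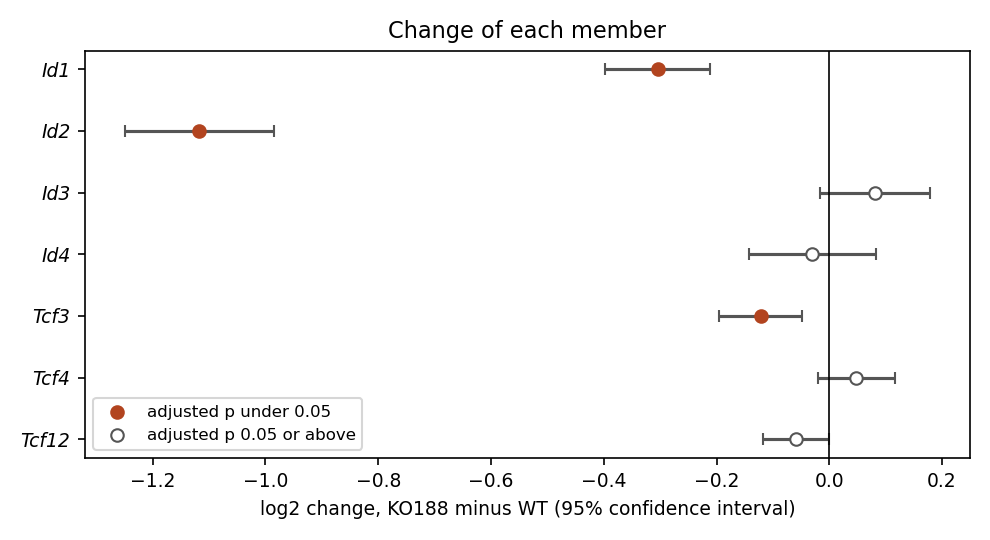
Log2 change, KO188 minus WT, of each gene with its 95% confidence interval before adjustment for the number of genes tested; filled points passed limma's test after adjustment. Id2 stands at -1.12 and Id1 at -0.30, while the other 5 genes lie between -0.12 and 0.08.

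**Figure D3:**
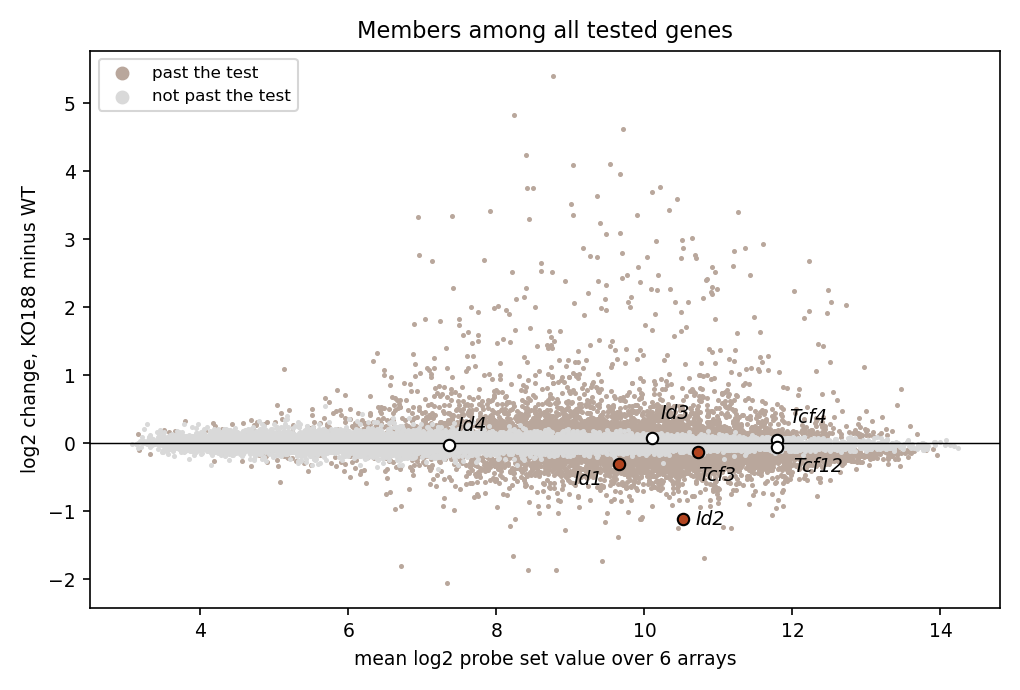
Log2 change, KO188 minus WT, against the mean log2 value over 6 arrays for 19938 tested genes, with the Id and E-protein genes ringed and filled in red where they passed the test. Id2 lies near the lower edge of the cloud, with the 16th largest fall, and the E-protein genes lie close to 0.

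The genes whose profile over the 6 arrays was most like that of Id2, by the root mean square difference of log2 values less each gene's own mean, were Ino80c (0.022), Ppbp (0.052) and Rasgrp3 (0.059). Ino80c, which encodes a subunit of the INO80 chromatin remodelling complex, read 9.46, 9.45 and 9.25 in KO188, against 10.50, 10.49 and 10.52 in WT. Like Id2, it had its lowest value in KO188 replicate 3, as did Ppbp and Rasgrp3. Ppbp, a platelet chemokine gene, changed by -1.06 and Rasgrp3, which encodes an activator of Ras-type GTPases, changed by -1.03 on the log2 scale. The measure is set mainly by the size of the group difference, and no other member had a change large enough (above 0.5) to enter it.

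BMP signalling is the best-known inducer of Id1, Id2 and Id3, and its genes were read by role from lists. Beside the counts of this and every later list stand the shares over all tested genes, 29.8% called, 13.3% higher and 16.5% lower. A count near those shares is no result about a list. Of 13 measured BMP ligand genes, 3 rose, 0 fell and 10 did not pass, and the list median was 0.02. Bmp4, a ligand with strong osteogenic activity, read 12.49, 12.47 and 12.48 in KO188, against 12.17, 12.15 and 12.15 in WT. It changed by 0.32 on the log2 scale (SE 0.024, limma, adjusted p = 1.2e-04). Bmp8a rose by 0.32 and Gdf7 by 0.20, while Bmp2 lay below the receptor-gene level in both groups (5.91 in KO188, 5.76 in WT). With arrays centred on their medians, or with quantile normalization, 1 ligand gene was called lower.

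Of 14 measured genes of BMP receptors, co-receptors and SMADs, 2 rose, 3 fell and 9 did not pass, with a median of -0.06. Both that rose encode co-receptors of the repulsive guidance molecule family, Rgmb (0.40, adjusted p = 1.1e-04) and Rgma (0.29, adjusted p = 6.4e-04). Those that fell were Smad9 (-0.41, adjusted p = 4.3e-04), Smad5 (-0.20) and Bmpr2 (-0.16), where Smad5 encodes a main BMP signal transducer and Bmpr2 the type II BMP receptor; the last pair was named after its values were seen. Smad9 read 8.80, 8.77 and 8.80 in KO188, against 9.17, 9.28 and 9.16 in WT, with no overlap. Smad1 (-0.10, adjusted p = 0.068), Smad4 (-0.07, adjusted p = 0.13) and the receptor gene Bmpr1a (-0.05, adjusted p = 0.34) did not pass. The count of lower calls was 7 with median centring and 6 with quantile normalization.

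Of 17 measured genes of BMP inhibitors, 8 rose, 0 fell and 9 did not pass, with a median of 0.06. Bambi, which encodes a receptor-like protein that lacks a kinase and dampens BMP and TGF-beta signals, read 9.16, 9.11 and 9.07 in KO188, against 8.55, 8.61 and 8.60 in WT. It changed by 0.53 on the log2 scale (SE 0.034, limma, adjusted p = 7.3e-05). Smurf2, a ubiquitin ligase gene that acts on SMADs, rose by 0.25 (adjusted p = 5.9e-04) on its brighter probe set; the dimmer one changed by 0.097 and did not pass (adjusted p = 0.23). Nbl1, a secreted BMP antagonist gene, rose by 0.26. The counts moved with the settings: median centring called 5 higher and 2 lower, quantile normalization 6 higher and 2 lower, and leaving out the dimmer genes 7 higher and 2 lower. Without KO188 replicate 2, WT replicate 1 or WT replicate 2, in each case 5 were called higher, and 1 was called lower without WT replicate 2.

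Other genes that BMP signalling is known to induce moved in both directions beside Id1 and Id2. Of 12 measured, 5 rose, 3 fell and 4 did not pass, with a median of 0.08. Dlx5, an osteoblast homeobox gene, read 9.32, 9.16 and 9.29 in KO188, against 8.53, 8.42 and 8.60 in WT. It changed by 0.74 on the log2 scale (SE 0.061, limma, adjusted p = 2.2e-04). Bambi, Smad6 and Smad7, which rose, were also counted among the BMP inhibitors, and Smad9, which fell, among the receptors and SMADs. Those calls are therefore not separate evidence. Sp7 rose by 0.36, but its 6-array mean of 6.59 lay below the receptor-gene level. Smad6, Smad7 and Sp7 were named after their values were seen. Bambi passed under all 13 alternatives, Smad6 under 7 and Smad7 under 5. Hey1 changed by -0.37 (adjusted p = 0.011; 0.051 without WT replicate 2), and Msx1 did not pass (0.05, adjusted p = 0.46). With median centring the counts were 3 higher and 5 lower, and 2 were higher without WT replicate 1 or without WT replicate 2, and 3 without WT replicate 3 or without KO188 replicate 3. Without WT replicate 2, 1 was lower.

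TGF-beta signalling is known to lower Id gene expression in several cell types, with ATF3 as a partner of SMAD3. Of 11 measured genes of that pathway, 7 rose, 3 fell and 1 did not pass, with a median of 0.11. Tgfbr3, the co-receptor gene betaglycan, read 11.52, 11.48 and 11.51 in KO188, against 10.69, 10.68 and 10.78 in WT. It changed by 0.79 on the log2 scale (SE 0.035, limma, adjusted p = 1.5e-05). The ligand genes Tgfb3 and Tgfb2 rose by 0.62 and 0.38, and Tgfb1 fell by 0.41. Atf3 rose by 0.51 (adjusted p = 7.8e-04), Smad3 rose by 0.19, and the type I receptor gene Tgfbr1 fell by 0.46. Skil fell by 0.31, while Ski and Tgfbr2 rose by 0.11 and 0.09. Tgfb1, Atf3, Smad3, Tgfbr1, Skil, Ski and Tgfbr2 were named after their values were seen. Higher calls numbered 5 with median centring and with the replicate number as a block. They were also 5 without KO188 replicate 2 or any 1 of the 3 WT arrays. Ski passed under 7 of 13 alternatives and Tgfbr2 under 6. The list mixes genes of different roles, so its counts give no direction for the pathway. Of the other inducers of Id genes examined, Egr1 (-0.10, adjusted p = 0.076), Myc (-0.07, adjusted p = 0.10) and Mycn (-0.04, adjusted p = 0.54) did not pass limma's test, though 2 of the 3 had an unadjusted p under 0.05, and 2 were called lower with median centring, with the dimmer genes left out or with an intensity trend. Without WT replicate 2, 1 was called lower.

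**Figure D4:**
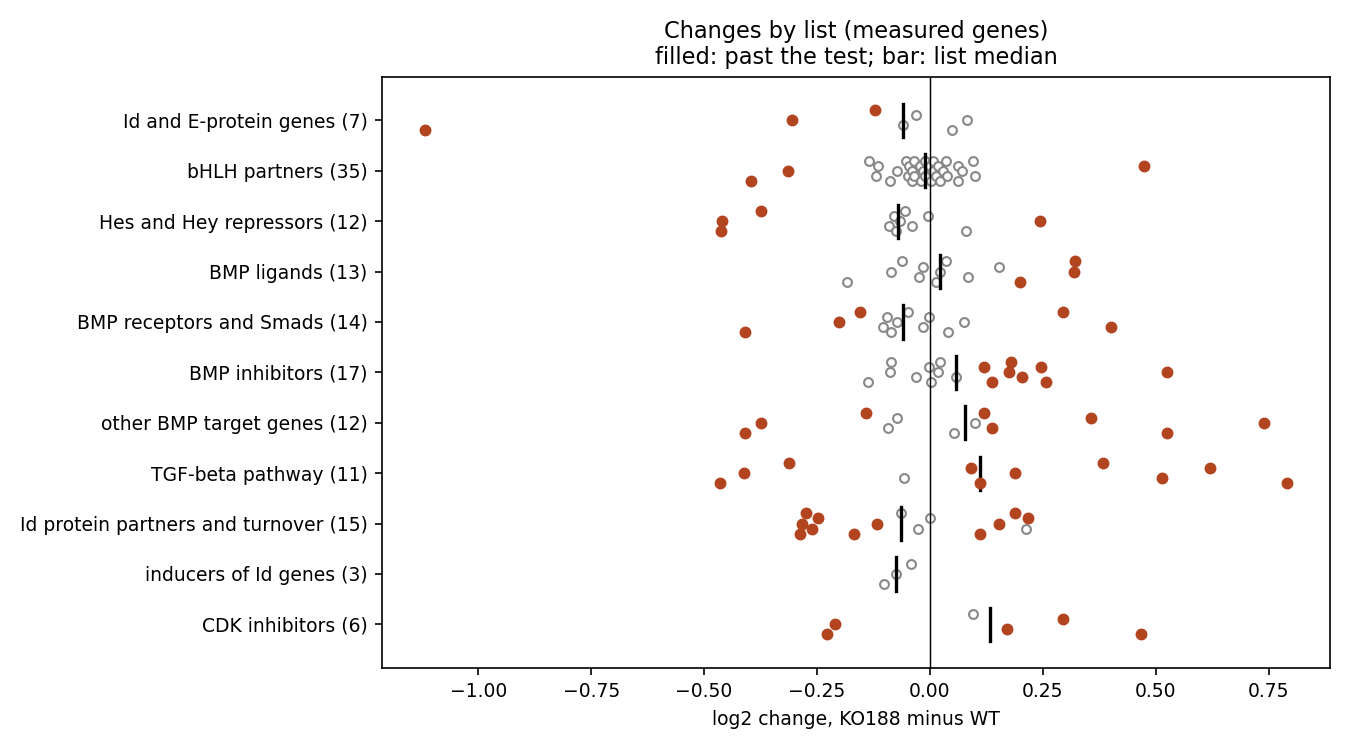
Log2 change, KO188 minus WT, of every measured gene of the 11 lists drawn (the Id and E-protein genes, their bHLH partners, the Hes and Hey repressors, the BMP and TGF-beta lists, Id partners, Id inducers and CDK inhibitors), with the number measured in brackets; the osteoblast, adipocyte and cell type marker lists are not drawn; filled points passed limma's test and the bar is the list median. Id2 at -1.12 lies outside the range of the other genes in these 11 lists, which runs from -0.46 (Tgfbr1, Hey2 and Bhlhe40) to 0.79 (Tgfbr3).

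The tissue-specific bHLH factors that share E proteins as partners were mostly not called. Of 35 measured, 1 rose, 2 fell and 32 did not pass, with a median of -0.01, and 16 lay at or below the receptor-gene level. Twist1, which encodes a bHLH factor that restrains osteoblast maturation, read 9.81, 9.88 and 9.71 in KO188, against 9.27, 9.32 and 9.39 in WT. It changed by 0.47 on the log2 scale (SE 0.053, limma, adjusted p = 8.3e-04). Its close paralog Twist2 read 10.32, 10.23 and 10.13 in KO188, against 10.50, 10.57 and 10.56 in WT, a change of -0.31 (adjusted p = 0.0047). Scx, the scleraxis gene of tendon cells, read 9.73, 9.74 and 9.71 in KO188, against 10.10, 10.14 and 10.13 in WT, a change of -0.40 (adjusted p = 7.3e-05). The 3 called genes showed no overlap between the groups, as did 41.5% of all tested genes. Having passed the test, they were likely to separate, so this is no further evidence. Without KO188 replicate 2, 2 genes of the list were called higher.

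The Hes and Hey genes with Bhlhe40 and Bhlhe41 encode a separate class of bHLH repressors. Of 12 measured, 1 rose, 3 fell and 8 did not pass, with a median of -0.07. Bhlhe40 read 10.03, 9.99 and 10.03 in KO188, against 10.47, 10.49 and 10.48 in WT. It changed by -0.46 on the log2 scale (SE 0.025, limma, adjusted p = 3.8e-05). Hey2 changed by -0.46 (adjusted p = 5.7e-04) and Hey1 by -0.37, and Hes1, a Notch target that Id proteins can bind, did not pass (-0.09, adjusted p = 0.058). The rise was that of Bhlhe41 (0.24, adjusted p = 0.030), named after its value was seen. It was lost with median centring and without KO188 replicate 3 or any 1 of the 3 WT arrays.

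Proteins that bind Id proteins or control their turnover were read as a further list. Of 15 measured genes, 4 rose, 7 fell and 4 did not pass, with a median of -0.06. Rbl2, a retinoblastoma family gene, changed by -0.29 (adjusted p = 8.0e-04), and the ETS factor genes Elk3 and Ets1 changed by -0.28 each (adjusted p = 4.6e-04 and 0.0019). Usp1, the gene of a deubiquitinase that stabilises Id proteins in osteosarcoma cells, changed by -0.26 (adjusted p = 0.0045) and was named after its value was seen. Median centring called 2 of the list higher, with 7 lower as before. Lower calls numbered 5 without KO188 replicate 2, KO188 replicate 3 or WT replicate 2. They numbered 6 without KO188 replicate 1 or with the replicate number as a block.

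Cell cycle inhibitor genes are known targets of E proteins that Id proteins oppose. Of 6 CDK inhibitor genes measured, 3 rose, 2 fell and 1 did not pass, with a median of 0.13. Cdkn2b rose by 0.47 (adjusted p = 2.4e-04), Cdkn1b by 0.29 (adjusted p = 3.9e-04) and Cdkn2a by 0.17 (adjusted p = 0.011). Those that fell were Cdkn2c (-0.21) and Cdkn2d (-0.23), named after their values were seen. Without WT replicate 1 or WT replicate 3, 1 was called lower.

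Genes of the fates on which Id2 and Id4 bear are given for scale. Of 13 adipocyte genes measured, 3 fell, 2 rose and 8 did not pass, with a median of -0.0061. Pparg, the transcription factor gene that Id2 is known to favour in preadipocytes, had log2 values of 7.68, 7.99 and 7.97 in KO188, against 9.77, 9.75 and 9.70 in WT. Its change was -1.86, larger than that of Id2, with the groups far apart. Fasn fell by 0.71 (limma adjusted p = 1.5e-05), while Lpl went the other way and rose by 0.54 (limma adjusted p = 4.9e-04). Of 10 osteoblast genes measured, 6 rose, 2 fell and 2 did not pass, with a median of 0.28. Alpl, the alkaline phosphatase gene, rose by 2.08 on the log2 scale. The 2 lower osteoblast calls, Msx2 and Phex, were both lost without WT replicate 1 and without WT replicate 2, and 1 was lost without any 1 of the other 4 arrays. Phex had a 6-array mean of 6.51, below the receptor-gene level. Only 1 adipocyte gene was called higher with median centring, with quantile normalization, and in 5 of the 6 fits with 1 array left out.

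Since these are bulk samples, fewer cells of a type and less RNA per cell cannot be told apart. Id2 and Tcf4 are also prominent in some immune cells, whose markers were read beside them. The mean log2 level of 10 lymphoid and plasmacytoid dendritic markers lay between 6.26 and 6.37 in KO188 and between 6.24 and 6.27 in WT, with 1 called higher, Gata3 (0.64, adjusted p = 6.8e-05), and 1 called lower when KO188 replicate 3 was left out. The mean of 8 macrophage markers lay between 6.42 and 6.51 in KO188 and between 6.49 and 6.52 in WT, with 0 called by limma (3 at an unadjusted p under 0.05, 2 called lower with median centring or quantile normalization, and 1 called higher with the dimmer genes left out or with the replicate number as a block). Without KO188 replicate 1, 1 macrophage marker was called lower. The mean of 8 endothelial markers lay between 6.48 and 6.54 in KO188 and between 6.50 and 6.54 in WT, with 1 called higher, Kdr, below the receptor-gene level (0.24, adjusted p = 0.021), a call lost without KO188 replicate 1 or any 1 of the 3 WT arrays. The mean of 10 stromal markers lay between 10.10 and 10.14 in KO188 and between 9.99 and 10.04 in WT, with 6 higher, led by Pdgfra (0.87), and 1 lower, Nt5e (-0.85). The part of cell composition in the Id2 and Id1 values was not tested.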

How the data were processed

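The values used are the authors' deposited log2 probe set summaries (35556 probe sets, 6 arrays). RMA, Partek and Affymetrix Expression Console are the tools listed, per the submitters' processing notes, with no version, role or order. RMA corrects background, makes the distributions of the arrays alike and summarises probes on the log2 scale, which compresses dim values. The medians of the deposited arrays still differed, at 7.46, 7.50 and 7.47 in KO188 and 7.43, 7.44 and 7.44 in WT. All 3 KO188 medians lay above all 3 WT medians, so this offset cannot be told apart from genotype. No genome build is stated. GEO's platform annotation named the probe sets (21789 with 1 symbol, 1621 with several, 0 with none, 12146 unlisted), checked by Entrez identifier against RefSeq (21698 matched, 0 symbols changed). The probe set with the highest 6-array mean was kept per gene, and dim genes were kept.

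limma 3.58.1 (R 4.3.3, lmFit, eBayes without trend, no covariate) was run as KO188 minus WT. P-values were adjusted over 19938 genes (Benjamini-Hochberg, threshold 0.05). On simulated data the fit recovered 4% of shifts of 0.15, 60% of 0.3, 88% of 0.6 and 100% of 1.5 (50 genes each). With only 133 calls there, 7 of them false, the adjustment was stricter than in these data. Members and the 16 gene lists (markers included) were chosen with earlier results of these data known. Genes were named by rule: all members, the 3 genes most like any member changed by over 0.5 (predicted genes skipped), and up to 3 called genes per list with the lowest p. List entries without a probe set of 1 symbol were not analysed here. Alternatives were median centring, quantile normalization, leaving out the dimmer genes (below the 50th percentile), averaging the probe sets of a gene, testing each probe set, an intensity trend, a replicate block and leaving out each array. Figures used matplotlib 3.10.9 in Python 3.11.15.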

Additional observations from a re-analysis of the deposited data

How the results depend on the processing

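Id2 and Id1 stayed lower and past the threshold under all 13 alternatives (adjusted p at most 6.0e-04 for Id2 and 0.0091 for Id1), and Id3 and Id4 passed under none of theirs. Id4 was -0.0745 to 0.0154 with 1 array left out, turning above 0 without KO188 replicate 2, and was not tested with the dimmer genes left out. Tcf3 was no longer past the threshold with the replicate block (-0.12, adjusted p = 0.061) and was -0.14 to -0.10 with 1 array left out. Tcf4 passed under quantile normalization (0.092). Tcf12 passed with median centring (-0.10), with the dimmer genes left out (-0.060, adjusted p = 0.049) and with an intensity trend (-0.060, adjusted p = 0.025). Median centring subtracts 1 value per array, so it moved every gene's change down by the same amount. Tcf4 went from 0.048 to 0.0041 and Id2 from -1.12 to -1.16. Why passing changed with the other settings was not tested. Over all genes 2643 were higher and 3294 lower (44.5% higher); median centring gave 2007 and 4505 (30.8% higher). Replicate numbers are shared by both groups, but same-numbered arrays did not deviate together (r = 0.018, 0.010 and -0.028 across genes), and the replicate block gave 5019 calls in place of 5937. Of 36 list genes named by rule, 33 kept their direction and their side of the threshold under every alternative run; the exceptions were Hey1, Kdr and Smurf2 (its other probe set). The number of arrays limits what could be detected, and signal over background is not given in the deposited table.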
